A study of Homo sapiens with 12 samples.

Results

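The genes described here were 34 zinc finger genes of the 19p12 cluster, out of 58381 genes in the deposited tables. They were taken by symbol from a list of the Krüppel-associated box (KRAB) zinc finger genes around ZNF100. The list was chosen by the counts of ZNF100 and its neighbours in the same 12 libraries, so the expression values of its genes are given as a description. In GRCh38 they span 4.46 Mb of chromosome 19, from the start of ZNF101 at 19668796 to the end of ZNF254 at 24129968. The libraries came from HMC-1, an established human mast cell line that proliferates through mutated KIT, the receptor tyrosine kinase for stem cell factor. HMC-1.1 carried V560G-KIT, and HMC-1.2 carried V560G-KIT together with D816V-KIT. HMC-1.3 was derived from HMC-1.2 by CRISPR/Cas9 repair of V560G and kept 1 mutated KIT allele, with D816V only. It was represented by 2 sublines, clone 1 and clone 2, and each of them stands for a single edited clone. Thus all 4 groups carried at least 1 activating KIT mutation, and a KIT wild-type group was not analysed here. Each group had 3 libraries of polyadenylated RNA. The cultures were plated in parallel in triplicate, so the p-values below measure only the spread between these wells, which may be technical.

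KRAB zinc finger proteins form the largest family of transcription factors in the human genome. Their arrays of C2H2 zinc fingers bind defined DNA sequences, often inside transposable elements, and their KRAB domain recruits TRIM28 (KAP1). TRIM28 in turn brings in the histone methyltransferase SETDB1 and the HP1 proteins, which silence the bound site with H3K9 methylation. The family grew by tandem duplication, and much of it lies in clusters on chromosome 19, so that neighbouring members resemble each other in both coding sequence and promoter.

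The total expected counts ran from 29225899 to 43181402 per library, and 15944 genes passed the filter on low counts and were tested. KIT itself, the edited gene, was at 450 ± 21.4 FPKM (fragments scaled by gene length and depth, SD, n = 3) in clone 1, 405 ± 6.83 in clone 2, 414 ± 7.89 in HMC-1.1 and 356 ± 8.55 in HMC-1.2. KIT was thus lowest in HMC-1.2, by log2 0.18 (HMC-1.1), 0.16 (clone 2) and 0.29 (clone 1), each under 1.5-fold (highest adjusted p = 0.0003, edgeR). A count per gene does not show which base is present, so these values do not check the edit. Whether the edit itself changed the level of KIT was not tested. Of 12 mast cell markers, 10 reached 1 FPKM in all 4 groups, whereas FCER1A and MS4A2, subunits of the high-affinity IgE receptor, did not. None of 3 T cell markers reached that level in all groups.

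The 34 genes fell into 4 patterns. A gene was taken as off in a group when each library held at most 3 expected counts, and as on when the group mean was at least 0.5 CPM (counts scaled to a common library size, with edgeR's TMM factors). By these limits 14 genes were on in all 4 groups, namely ZNF101, ZNF14, ZNF682, ZNF430, ZNF714, ZNF431, ZNF708, ZNF429, ZNF43, ZNF492, ZNF730, ZNF91, ZNF675 and ZNF254. A further 11 genes were off in all 4 groups. Of these, ZNF506, ZNF737, ZNF626, ZNF85, ZNF738, ZNF676, ZNF729, ZNF99 and ZNF726 had 0 counts in all 12 libraries, and ZNF208 and ZNF728 had at most 1 count in a library. For the genes at 0, a count of up to 3 in a library cannot be told from none at this depth. In 7 genes no group was on and not every group was off, namely ZNF253, ZNF93, ZNF90, ZNF486, ZNF257, ZNF98 and ZNF681. ZNF493 was on in 3 groups and low in HMC-1.2. Only ZNF100 was on in 1 group and off in another, which is 1 of the 16 genes that were on in at least 1 group (6.25%). Over the whole table, 139 of the 14837 genes that were on in at least 1 group met the same definition, which is 0.937%. Because the list was made around ZNF100, this gene was in it beforehand, so the 6.25% does not measure an excess over that share. The on and off genes were interspersed along the chromosome in short runs, as the heat map of all libraries shows. ZNF100 itself lay between ZNF429 and ZNF43, which were on in all 4 groups.

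**Figure D1:**
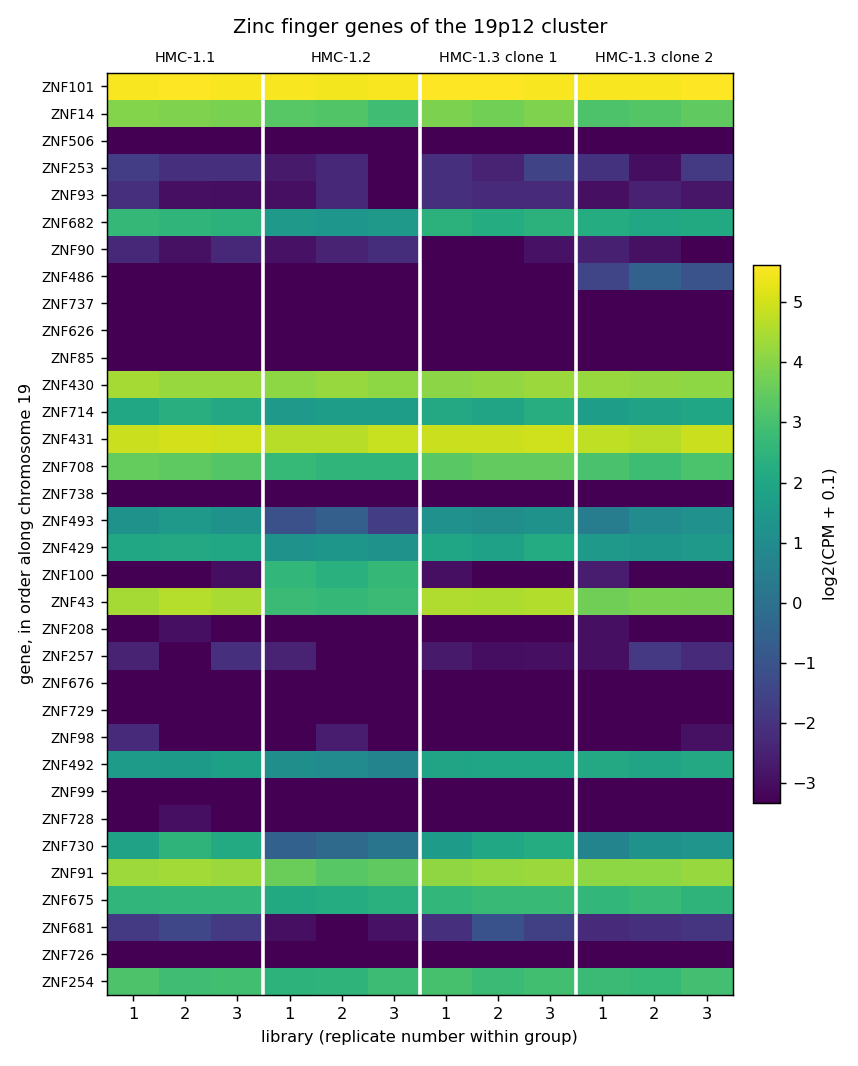
Level of the 34 genes as log2(CPM + 0.1) by colour, with genes in chromosomal order on the vertical axis and the 12 libraries, 3 per group, on the horizontal axis. ZNF100 is bright in the 3 HMC-1.2 libraries and dark in the other 9, while 9 genes are at 0 in all 12.

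Most of the promoters of these genes were alike, including those of the 5 genes that were off in all groups and had a promoter entry. RefSeq (GRCh38.p14) gave a promoter of 300 bases, 250 before and 50 after the start, for 26 of the 34 genes. The genes without an entry were ZNF506, ZNF253, ZNF738, ZNF676, ZNF729, ZNF98, ZNF99 and ZNF728. Shown are 220 bases that end 30 bases before the RefSeq start of ZNF100 (on in HMC-1.2 only), ZNF486 (counts in clone 2 only), ZNF43, ZNF493 and ZNF730 (lowest in HMC-1.2) and ZNF85 (0 counts in all libraries). They are given on the gene's strand, 5′ to 3′, and capitals mark the CCAAT box. For ZNF43 and ZNF730, as for ZNF254 and ZNF429, the RefSeq start lies inside the annotated gene, away from its outer end. Which start these cells use was not tested.
ZNF100 (chr19:21767610-21767829, minus strand): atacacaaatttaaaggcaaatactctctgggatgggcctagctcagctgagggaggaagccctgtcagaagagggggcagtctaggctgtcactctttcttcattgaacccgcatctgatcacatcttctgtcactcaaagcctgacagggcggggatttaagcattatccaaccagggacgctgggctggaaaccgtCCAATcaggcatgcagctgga
ZNF486 (chr19:20166964-20167183, plus strand): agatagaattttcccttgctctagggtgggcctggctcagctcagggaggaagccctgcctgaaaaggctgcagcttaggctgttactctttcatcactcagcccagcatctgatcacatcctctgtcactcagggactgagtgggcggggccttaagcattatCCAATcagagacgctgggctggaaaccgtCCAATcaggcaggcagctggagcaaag
ZNF43 (chr19:21836213-21836432, minus strand): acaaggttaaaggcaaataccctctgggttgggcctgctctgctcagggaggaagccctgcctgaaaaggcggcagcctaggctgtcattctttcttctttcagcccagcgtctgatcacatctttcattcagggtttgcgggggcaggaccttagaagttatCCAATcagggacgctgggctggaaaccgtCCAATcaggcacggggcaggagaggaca
ZNF493 (chr19:21396883-21397102, plus strand): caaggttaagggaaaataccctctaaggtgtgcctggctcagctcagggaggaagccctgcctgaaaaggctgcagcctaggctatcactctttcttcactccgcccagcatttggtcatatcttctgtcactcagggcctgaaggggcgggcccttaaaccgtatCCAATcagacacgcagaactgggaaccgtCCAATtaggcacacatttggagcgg
ZNF730 (chr19:23116775-23116994, plus strand): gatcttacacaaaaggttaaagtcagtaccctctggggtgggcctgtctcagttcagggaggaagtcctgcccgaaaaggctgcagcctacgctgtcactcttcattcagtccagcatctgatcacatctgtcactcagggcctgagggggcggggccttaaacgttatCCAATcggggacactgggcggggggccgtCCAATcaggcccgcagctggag
ZNF85 (chr19:20923001-20923220, plus strand): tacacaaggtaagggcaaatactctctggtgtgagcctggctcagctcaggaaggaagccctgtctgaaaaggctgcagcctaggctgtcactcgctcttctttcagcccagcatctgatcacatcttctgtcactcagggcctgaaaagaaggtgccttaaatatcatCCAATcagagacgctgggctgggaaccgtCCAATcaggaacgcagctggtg

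Aligned over the 300 bases, the promoter of ZNF100 was 47.6% to 81.8% identical to those of the other 25 genes, with a median of 76.9%. The lowest were those of ZNF14 (47.6%), ZNF101 (52.7%), ZNF429 (54.6%) and ZNF708 (57.5%), which were on in all groups. The closest was that of ZNF85 (81.8%), a gene with no counts in any library, and that of ZNF43 was 76.6% identical. To the promoters of 181 other ZNF genes of chromosome 19 the identity of ZNF100 had a median of 46.6%. CCAAT was found on either strand (ATTGG on the other) in 26 of the 26 promoters, against 34.6% of 35116 RefSeq promoters and 45.3% of those of the other ZNF genes of chromosome 19. At least 2 such matches were found in 18 promoters (69.2%, against 10.8% of all). ZNF100 had 1 match, which began 51 bases before the start, whereas the 5 other promoters shown had 2 each in the bases printed. GGGCGG, the core of the GC box, was found in 73.1% of the promoters (CCGCCC on the other strand), close to the 69.1% of the other ZNF genes of chromosome 19 and against 45.0% of all. CTTCCGG, an ETS-type motif, was found in 69.2% (CCGGAAG on the other strand), against 40.3% of those ZNF genes and 10.3% of all. The run TGATCACA, picked after these sequences were read, was found in 15 of the 26 (57.7%), in 0.552% of the other ZNF genes of chromosome 19 and in 0.661% of all promoters (TGTGATCA on the other strand). A match is a description of the letters only. CpG dinucleotides were at 0.45 of the number expected from base composition in ZNF100. The median was 0.49 in the 14 genes on in all groups, 0.40 in the 5 genes with a promoter that were off in all, and 0.58 over all promoters, and the ranges of the first 2 sets (0.38 to 0.72 and 0.33 to 0.71) overlapped.

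**Figure D2:**
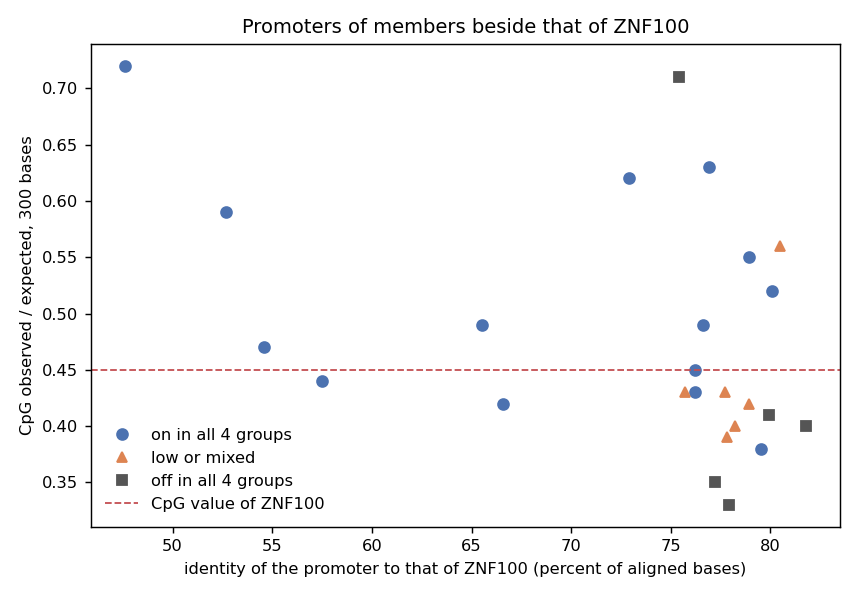
Promoters of 25 genes, each a point, by their identity to the promoter of ZNF100 in percent (horizontal axis) and their ratio of observed to expected CpG dinucleotides (vertical axis), with colour and shape for the expression pattern. Genes off in all 4 groups lie between 75.4% and 81.8% identity and genes on in all 4 between 47.6% and 80.1%, and the dashed line is the CpG value of ZNF100, 0.45.

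ZNF100 (chr19:21722771-21767579, minus strand) had 216, 152 and 178 expected counts in the 3 HMC-1.2 libraries. It had 0, 0 and 1 in HMC-1.1, 1, 0 and 0 in clone 1, and 2, 0 and 0 in clone 2. The HMC-1.2 libraries therefore stood far above the other 9, none of which held more than 2 counts. On the FPKM scale the level in HMC-1.2 was 1.21 ± 0.04 (SD, n = 3), which was close to that of ZNF43 in the same cells (1.44 ± 0.0781). With 3 counts per library as the floor for the groups near 0, ZNF100 was at least 71-fold higher in HMC-1.2 than in HMC-1.1, at least 69-fold higher than in clone 1 and at least 73-fold higher than in clone 2. HMC-1.2 is the line from which both clones were made. In bulk RNA, fewer cells with the transcript and less transcript per cell cannot be told apart. Of the 25 genes in the whole table that were on in HMC-1.2 and off in the other 3 groups, 2 were zinc finger genes, ZNF100 and ZNF542.

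ZNF486 (chr19:20167214-20200488, plus strand) was also found in a single group, clone 2, at a much lower level. It had 0 counts in all 9 libraries of clone 1, HMC-1.2 and HMC-1.1, and 9, 23 and 17 counts in clone 2. The mean in clone 2 was 0.415 ± 0.165 CPM (SD, n = 3), just under the limit for on, and the gene was left out by the filter on low counts. Without that filter, edgeR called it in clone 2 against each of the other groups (highest adjusted p = 1.9e-06). In FPKM the clone 2 libraries were at 0.09, 0.26 and 0.11, which did not overlap the 0 of the others. With an upper limit of 10 counts for off and a lower limit of 0.3 CPM for on, chosen after the data were seen, ZNF486 joined ZNF100 as an on/off gene. ZNF493 in HMC-1.2, with 0.377 ± 0.178 CPM, was the other gene just outside the limit for on.

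Among the genes with reads in all groups, the common pattern was a lower level in HMC-1.2. In all, 16 of the 34 genes passed the filter and were tested. In CPM, 9 of these had each HMC-1.2 library below all 9 other libraries (56.2%, against 17.5% of all genes tested), namely ZNF101, ZNF682, ZNF708, ZNF493, ZNF43, ZNF492, ZNF730, ZNF91 and ZNF675. In 1 gene, ZNF100, each HMC-1.2 library was above the others (6.25%, against 17.2% of all genes). In FPKM, ZNF101, ZNF682 and ZNF708 overlapped, so that HMC-1.2 was below in 6 of the 16 genes (37.5%, against 16.7% of all) and above in ZNF100 again (12.4% of all). Because the list was drawn up with these libraries in view, and a gene enters the test only where it is expressed, these counts are descriptions.

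ZNF493 (chr19:21397119-21427577) had the widest gap of the genes that were on in several groups. It had 85, 99 and 88 counts in HMC-1.1, 79, 76 and 79 in clone 1 and 43.01, 73 and 96 in clone 2, but 13, 17 and 6 in HMC-1.2. In FPKM, HMC-1.2 was at 0.1 ± 0.0436 (SD, n = 3), against 0.923 ± 0.1 in clone 1, 0.86 ± 0.148 in HMC-1.1 and 0.78 ± 0.211 in clone 2. No HMC-1.2 library overlapped the others. The other 3 groups overlapped each other in FPKM, whereas in CPM the lowest HMC-1.1 library (2.26) lay just above the highest of the clones (2.24). Against HMC-1.2 it was 6.36-fold higher in HMC-1.1, 5.64-fold higher in clone 1 and 4.72-fold higher in clone 2, with a standard error on the log2 scale of 0.28 in HMC-1.1 and clone 1 and 0.29 in clone 2.

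ZNF730 (chr19:23075210-23147221) had 130, 199 and 164 counts in HMC-1.1, 21, 23 and 29 in HMC-1.2, 109.23, 148.95 and 161.04 in clone 1 and 52.1, 88 and 106 in clone 2. In CPM the clone 2 libraries (1.52, 2.26 and 2.45) lay above those of HMC-1.2 (0.586, 0.759 and 1.0) and below those of HMC-1.1 and clone 1, of which the lowest was 3.01. In FPKM clone 2, at 0.94, 2.82 and 1.5, overlapped both HMC-1.1 (2.18, 3.94 and 2.46) and clone 1 (1.86, 2.45 and 3.29), but not HMC-1.2. The log2 fold change against HMC-1.2 was 2.51 (standard error 0.25) in HMC-1.1 and 2.31 (0.26) in clone 1, but 1.44 (0.27) in clone 2. A long non-coding RNA on the same strand, CTD-2291D10.4, spans chr19:23075201-23100361 and shares its beginning, so reads of ZNF730 may be divided between them.

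ZNF43 (chr19:21804946-21852125), the next gene after ZNF100, showed the same order with more reads. It had 791, 899 and 855 counts in HMC-1.1, 855.84, 851 and 845.2 in clone 1, 438, 547 and 587.76 in clone 2 and 243, 186 and 197 in HMC-1.2. Its level ran from 5.16 ± 0.166 FPKM (SD, n = 3) in clone 1 and 4.94 ± 0.516 in HMC-1.1 to 3.04 ± 0.343 in clone 2 and to 1.44 ± 0.0781 in HMC-1.2. HMC-1.1 and clone 1 overlapped, clone 2 lay below both, and HMC-1.2 lay below clone 2. The log2 fold change against HMC-1.2 was 1.83 (standard error 0.07) for clone 1, 1.79 (0.07) for HMC-1.1 and 1.04 (0.08) for clone 2. ZNF682 and ZNF708 had the same order without overlap in CPM, so that 4 of the 16 genes tested (25.0%) stood as HMC-1.2 below clone 2 below both HMC-1.1 and clone 1 on that scale, against 4.89% of all genes. In FPKM this order held in 2 genes, ZNF43 and ZNF91 (12.5%, against 4.12% of all genes).

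**Figure D3:**
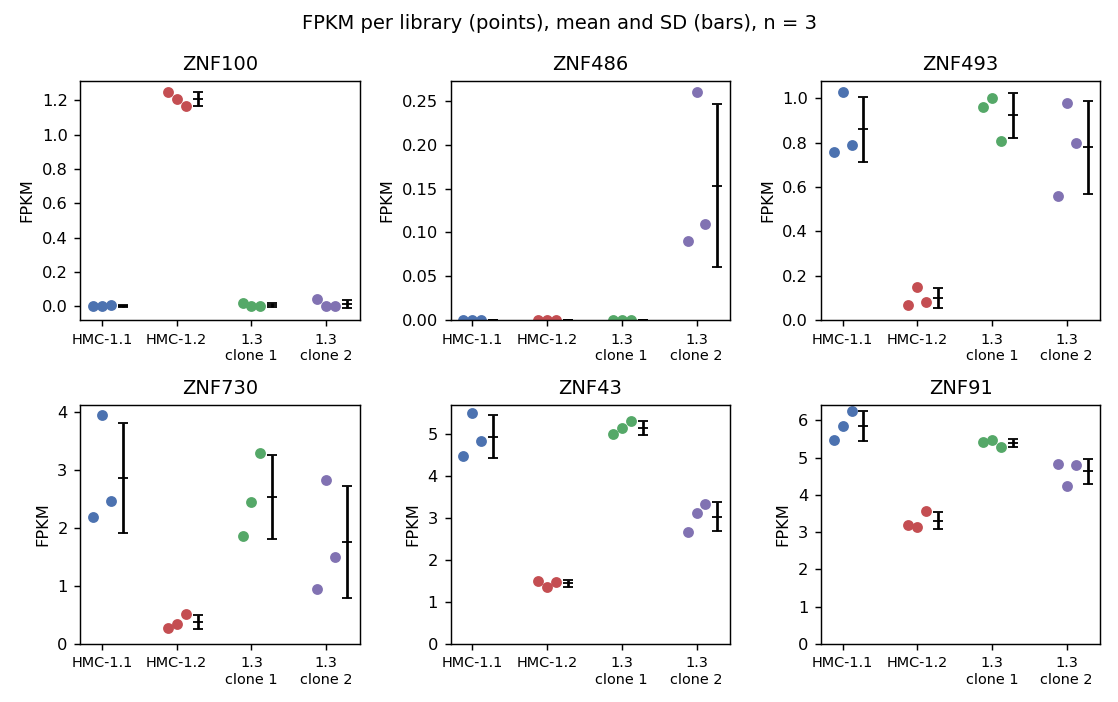
FPKM of 6 genes by group, with 1 point per library and a bar for the mean ± SD (n = 3) beside the points. ZNF100 is above 1 FPKM only in HMC-1.2, ZNF486 is above 0 only in clone 2, and HMC-1.2 is lowest in ZNF493, ZNF730, ZNF43 and ZNF91.

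ZNF91 (chr19:23304991-23395471) encodes a repressor of SVA retrotransposons and had 738.01, 744.1 and 731 counts in HMC-1.1, 433, 293 and 314 in HMC-1.2, 635, 713 and 676.64 in clone 1 and 582, 672 and 803 in clone 2. Its FPKM, lowest in HMC-1.2 (3.3 ± 0.233, SD, n = 3), was 4.63 ± 0.33 in clone 2, 5.85 ± 0.4 in HMC-1.1 and 5.4 ± 0.104 in clone 1. All 9 other libraries lay above those of HMC-1.2, with log2 fold changes of 0.85, 0.77 and 0.69 in HMC-1.1, clone 1 and clone 2, each with a standard error of 0.07. ZNF93, known to bind long interspersed elements, had at most 5 counts in a library, and no difference between the groups was detectable at that depth.

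ZNF492 differed from this order in that both clones lay at or above HMC-1.1. It had 112.84, 104.15 and 125 counts in HMC-1.1, 74.88, 57.01 and 44 in HMC-1.2, 133, 138 and 131.36 in clone 1 and 141, 143 and 178.66 in clone 2. In FPKM the groups were at 0.763 ± 0.0513 (SD, n = 3), 0.447 ± 0.0709, 0.937 ± 0.0115 and 0.987 ± 0.0666. The lowest library of the clones, at 0.91 FPKM, was above the highest of HMC-1.1, at 0.82.

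ZNF682 had 228, 204 and 201 counts in HMC-1.1, 98, 76 and 80 in HMC-1.2, 190, 169.04 and 184 in clone 1 and 154, 157 and 181 in clone 2. Its log2 fold change against HMC-1.2 was 1.08 (standard error 0.11) for HMC-1.1, 0.90 (0.12) for clone 1 and 0.66 (0.12) for clone 2. On log2(FPKM + 0.1) the last of these was 0.23 and no longer called. ZNF708 had 427, 385 and 357 counts in HMC-1.1, 226, 170 and 166.12 in HMC-1.2, 358, 417 and 383 in clone 1 and 283, 279 and 365 in clone 2, and its log2 fold changes were 0.82, 0.85 and 0.43 (standard error 0.10 each). ZNF14 and ZNF429 were at 3.13 ± 0.466 and 2.08 ± 0.284 FPKM (SD, n = 3) in HMC-1.2 and at 3.51 ± 0.416 and 2.31 ± 0.339 in clone 2. In these 2 genes HMC-1.2 and clone 2 overlapped, and the log2 difference between them was 0.14 in both.

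The remaining genes that were on in all groups varied little. ZNF101, with 18.8 ± 0.976 FPKM (SD, n = 3) in HMC-1.2 and 19.5 ± 0.593 in HMC-1.1, had the highest level of the 34 genes and log2 fold changes against HMC-1.2 of 0.05 to 0.08. ZNF430 (0.02 in both clones and 0.16 in HMC-1.1) and ZNF431 (0.21, 0.06 and 0.25 in clone 1, clone 2 and HMC-1.1) also moved by less than 1.5-fold. The log2 fold changes of ZNF714, ZNF675 and ZNF254 lay between 0.21 and 0.52, also under 1.5-fold.

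Of the genes with few reads, ZNF681 had 7, 10 and 7.27 counts in HMC-1.1, 1, 0 and 1 in HMC-1.2, 5, 14 and 8 in clone 1 and 4, 5 and 7 in clone 2. Its HMC-1.2 libraries were thus again the lowest 3, but the gene was left out by the filter. Without the filter it was called higher than HMC-1.2 in all 3 other groups (highest adjusted p = 0.042, edgeR). ZNF253 had 8, 5 and 5 counts in HMC-1.1, 2, 3 and 0 in HMC-1.2, 5, 3 and 9 in clone 1 and 5, 1 and 8 in clone 2, and the groups overlapped. ZNF90 had at most 3.76 counts in a library, with 3.74, 1.22 and 3.76 in HMC-1.1, 1.26, 2.51 and 3.62 in HMC-1.2, 0, 0 and 1.26 in clone 1 and 2.42, 1.22 and 0 in clone 2. ZNF257 and ZNF98 reached 7 and 4.16 counts.

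Each comparison was then read against all genes tested. Called genes are those with a Benjamini-Hochberg adjusted p under 0.05 in edgeR and a fold change over 1.5. In clone 1 against HMC-1.2, the calls took in 10 of the 16 genes, 9 higher and ZNF100 lower, and 20.0% of all genes tested, 11.8% higher and 8.18% lower. The 9 were ZNF14, ZNF682, ZNF708, ZNF493, ZNF429, ZNF43, ZNF492, ZNF730 and ZNF91. HMC-1.1 against HMC-1.2 gave the same 10 genes in the same directions, where 17.6% of all genes were called, 10.1% higher and 7.52% lower. Both comparisons share the HMC-1.2 libraries. In clone 2 against HMC-1.2, 7 genes were called, 6 of them higher (ZNF682, ZNF493, ZNF43, ZNF492, ZNF730 and ZNF91) and ZNF100 lower, where 16.5% of all genes were called, 7.98% higher and 8.51% lower. The median log2 fold change of the 16 genes was 0.72 for HMC-1.1, 0.69 for clone 1 and 0.30 for clone 2, where the medians over all genes were 0.01, 0.01 and 0.00.

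**Figure D4:**
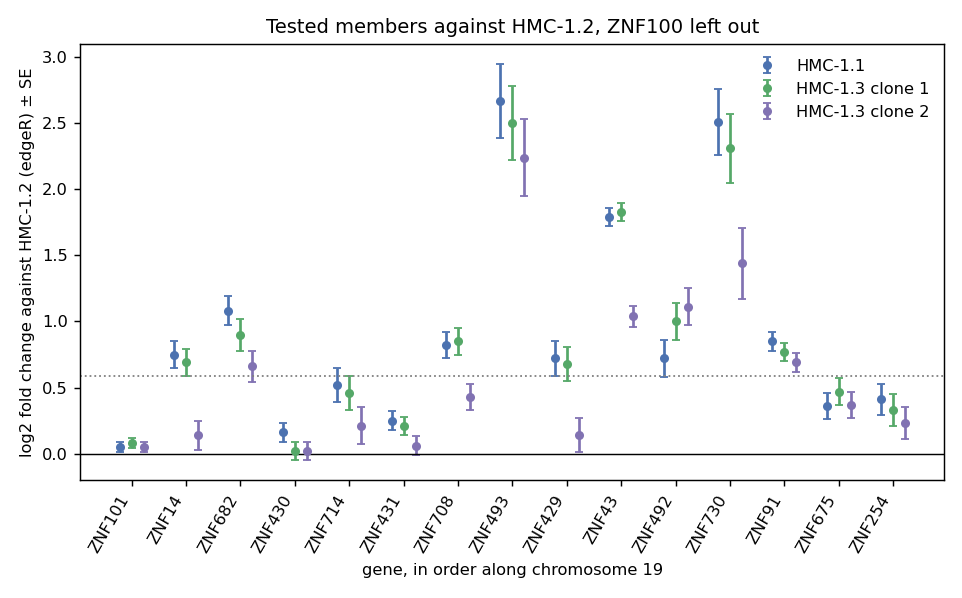
Log2 fold change against HMC-1.2 with its standard error (edgeR) on the vertical axis for 15 tested genes in chromosomal order, with colours for HMC-1.1, clone 1 and clone 2, and a dotted line at 1.5-fold. ZNF100 is left out because its fitted fold change depends on counts near 0. ZNF493 and ZNF730 stand highest, and the clone 2 values of ZNF43 and ZNF730 lie below those of HMC-1.1 and clone 1.

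Between clone 1 and HMC-1.1, 0 of the 16 genes were called by edgeR, as by DESeq2 and limma, and 1.01% of all genes were, 0.671% higher in clone 1 and 0.339% lower. At an unadjusted p under 0.05 (edgeR) there was 1 gene of the 16, ZNF492, with a log2 difference of 0.28 (standard error 0.13). Over all 15944 genes tested, 5004 were under that limit. The values of ZNF492 are uncertain, because it shares sequence with ZNF98, as given below. Clone 2 differed from HMC-1.1 in 3 genes, which were all lower in clone 2, where 8.19% of all genes were called, 5.15% lower and 3.04% higher. They were ZNF14 (log2 -0.62, standard error 0.10), ZNF43 (-0.75, standard error 0.07) and ZNF730 (-1.07, standard error 0.21). With edgeR's glmTreat, which asks for a fold change beyond 1.5 with confidence, 0 of these 3 were called. On log2(FPKM + 1), limma also called 0 genes of the cluster, whereas on log2(FPKM + 0.1) it called 3, all lower in clone 2. Between the clones, ZNF43 (log2 0.80, standard error 0.07) and ZNF730 (0.88, standard error 0.22) were higher in clone 1, where 12.6% of all genes were called, 8.38% higher and 4.25% lower. Without replicate 2 of clone 1, 5 genes were called between the clones, with ZNF14 and ZNF429 added as higher in clone 1 and ZNF486 as lower. A call of 1 gene as lower in clone 1 also appeared with most of the other libraries left out. With any library left out, the smallest group was smaller, and the filter on low counts asked for fewer libraries.

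The genes resemble each other enough that reads can match several of them. The counting by RSEM divides such reads, which leaves counts that are not whole. Of the counts of at least 10, 25.8% were more than 0.005 from a whole number in these genes, against 26.6% in the other ZNF genes of chromosome 19 and 23.1% over all genes. ZNF254 had counts that were not whole in 12 of 12 libraries, and ZNF492 and ZNF101 in 6 of 12 each. The 3 counts of ZNF100 in HMC-1.2 were whole. In the transcripts of Gencode 44, a median of 4.26% of the distinct 50-base windows of a gene also occurred in another gene. The share exceeded 30% in 2 genes, ZNF98 (41.0%) and ZNF492 (33.3%), and was 24.8% in ZNF208. ZNF98 and ZNF492 shared most of these windows with each other, 37.6% of those of ZNF98 and 29.4% of those of ZNF492, so the values of this pair are uncertain. For ZNF100 the share was 4.02%, and its closest member was ZNF430 with 0.712%, a gene that was on in all 4 groups.

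A lower level in HMC-1.2 was also frequent in ZNF genes outside the cluster. Of 207 other ZNF genes on chromosome 19, 191 were tested, and in 83 of them (43.5%) each HMC-1.2 library lay below all 9 others in CPM. The share was 37.8% of the 45 tested on the telomeric side of 19p and 45.2% of the 146 on 19q. It was 22.7% of 203 ZNF genes on other chromosomes, against 17.5% of all genes. These other lists of ZNF genes were counted in CPM only. The share of the cluster was 56.2% in CPM but 37.5% in FPKM, so its rank among these lists may depend on the scale. By the threshold above, 46 of the 191 were higher and 5 lower in clone 1 than in HMC-1.2, 10 higher and 7 lower in clone 2, and 39 higher and 4 lower in HMC-1.1. The calls made up 26.7%, 8.9% and 22.5% of the 191, against 20.0%, 16.5% and 17.6% of all genes. The median log2 fold changes of the 191 were 0.34, 0.17 and 0.32. Between the clones, 14 of these genes were higher in clone 1 and 0 lower (7.33% called, against 12.6% of all genes).

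**Figure D5:**
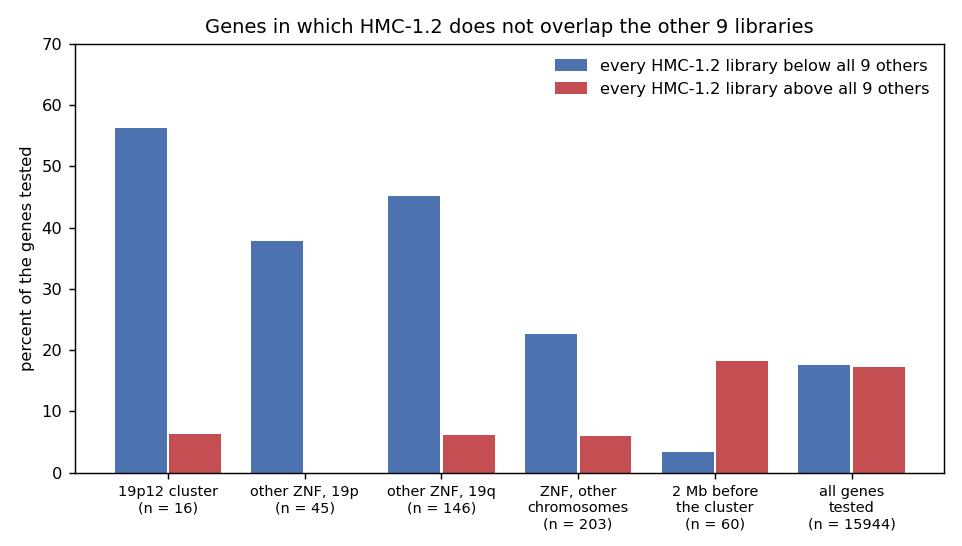
Percent of the genes tested in which the 3 HMC-1.2 libraries lie below, or above, all 9 other libraries in CPM, for the genes of the cluster and other lists, with the number tested under each bar. The bar for below is 56.2% in the cluster, 37.8% in other ZNF genes of 19p, 45.2% in those of 19q and 17.5% over all genes. The bar for above is 6.25%, 0.0%, 6.16% and 17.2% in the same order.

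The widest difference among the other ZNF genes of chromosome 19 was in ZNF542, annotated as a transcribed pseudogene at chr19:56373250-56377972. Its counts ran from 226 to 302 in the HMC-1.2 libraries, were 0 in HMC-1.1, and reached at most 1 in clone 1 and 2 in clone 2, and it thus had the same distribution as ZNF100. ZNF880 (chr19:52369917-52385795) and ZNF528 (chr19:52397849-52418412), which are neighbours, were lowest in clone 2. ZNF528 was at 0.34 ± 0.0872 FPKM (SD, n = 3) in clone 2, 1.55 ± 0.551 in clone 1, 1.24 ± 0.295 in HMC-1.1 and 2.46 ± 0.551 in HMC-1.2. Its log2 difference of clone 2 from HMC-1.2 came to -2.59 (standard error 0.16, edgeR adjusted p = 3.4e-10), and that of ZNF880 was -3.75 (standard error 0.54, edgeR adjusted p = 1.8e-05). ZNF541 had the fewest counts in clone 2, at 10 to 21 (log2 -2.00 against HMC-1.2, adjusted p = 0.00019 by edgeR), but in FPKM it was at 0.31 ± 0.357 (SD, n = 3) in clone 2 and 0.287 ± 0.0493 in HMC-1.1. ZNF540 was lowest in HMC-1.2, with log2 fold changes of 1.40, 1.70 and 1.54 in clone 1, clone 2 and HMC-1.1 and a highest adjusted p of 0.0012 (edgeR).

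The lower level in HMC-1.2 was not shared by the genes next to the cluster. In the 2 Mb before ZNF101, 60 of 101 genes were tested, and HMC-1.2 lay below the other 9 libraries in 2 of them (3.33%) and above in 11 (18.3%). In the 2 Mb after the last member, 0 of 4 genes could be tested. Between the first and the last member lay 168 further annotated genes, mostly pseudogenes and long non-coding RNAs in Gencode 44. Of these, 9 were tested and 5 were called in at least 1 comparison, where 30.1% of all genes tested were. Without replicate 3 of HMC-1.2, 3 were called. In CPM, HMC-1.2 lay below the other 9 libraries in 2 of the 9 genes (22.2%) and above in 1 (11.1%). The 5 called in the fit of all libraries included ZNF849P, a pseudogene downstream of ZNF492. ZNF849P was higher than in HMC-1.2 by log2 1.12 in clone 1, 1.16 in HMC-1.1 and 1.82 in clone 2 (highest adjusted p = 0.0094, edgeR). CTD-2291D10.4, which overlaps ZNF730, was higher by log2 1.57, 1.67 and 1.71 (highest adjusted p = 0.0009, edgeR). CTC-559E9.1 was higher in clone 1 (1.46, adjusted p = 0.0015, edgeR) and HMC-1.1 (1.35, adjusted p = 0.0033), and ZNF724P in HMC-1.1 (0.63, adjusted p = 0.0029 by edgeR). AC078899.1, a processed pseudogene, was lower in clone 1 (-1.14, adjusted p = 0.045, edgeR).

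Of the partners through which KRAB zinc finger proteins repress, most differed little. All 22 genes of this list were tested, and 3 were called in at least 1 comparison, CBX5, UHRF1 and DNMT3B. Over all genes, 30.1% were called in at least 1 comparison. CBX5, which encodes HP1 alpha, was at 32.2 ± 0.805 FPKM (SD, n = 3) in clone 2, 28.1 ± 0.452 in HMC-1.1 and 24.2 ± 1.4 in clone 1, but 13.7 ± 0.145 in HMC-1.2. It was higher than in HMC-1.2 by log2 0.83, 0.93 and 0.70 in these 3 groups (highest adjusted p = 1.1e-09, edgeR), and no HMC-1.2 library overlapped the others in counts. UHRF1, which maintains DNA methylation, fell by log2 0.80 from HMC-1.2 to clone 1 (43.1 ± 0.848 to 25.7 ± 0.358 FPKM, n = 3, adjusted p = 4.4e-12 by edgeR). DNMT3B, a de novo DNA methyltransferase, was lower in clone 1 (17.3 ± 0.482 FPKM) than in clone 2 (28.9 ± 0.249), a log2 difference of -0.78 (adjusted p = 1.5e-11, edgeR). TRIM28 was at 385 ± 19.3 FPKM in clone 1, 462 ± 16.9 in HMC-1.1, 516 ± 2.08 in HMC-1.2 and 516 ± 3.76 in clone 2, and did not pass the fold threshold in any comparison. Its log2 difference of clone 1 from HMC-1.2 was -0.50 (standard error 0.03, adjusted p = 8.2e-11, edgeR). SETDB1 lay between 14.2 ± 0.435 FPKM in clone 2 and 18.5 ± 0.382 in clone 1.

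The genes whose log2 CPM followed ZNF100 most closely over the 12 libraries were DNAJA4, RP4-788L20.5 and GRK6 (Pearson's r = 0.996 each) and PRF1 and CSF1 (0.995 each). With 3 libraries per group, such an r mostly measures the contrast of HMC-1.2 with the other 9 libraries. DNAJA4, a co-chaperone gene of the DNAJ family, had 474 to 600 counts in HMC-1.2 and at most 1 in any other library. GRK6, PRF1 and CSF1 were present in all groups and higher in HMC-1.2, CSF1 for instance at 45.0 ± 0.915 FPKM (SD, n = 3) against 6.56 to 6.82 in the group means of the others. These 5 genes were chosen for their likeness, and their values are descriptions.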

How the data were processed

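Polyadenylated RNA of 12 HMC-1 cultures, 3 per group, was sequenced with a stranded kit. Per the labels and the study's methods, the authors removed adapters with cutadapt 2.10, mapped the reads by STAR 2.5.3 on hg38, marked duplicates with Picard and estimated an expected count per gene with RSEM 1.3.0, which divides reads that match several genes. The deposited FPKM table gives the same genes scaled for transcript length and library size. Whether the counting used the strand is not given in the sources used here.

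Expected counts were rounded to whole numbers and tested with edgeR 4.0.16 (R 4.3.3) in 1 fit of all 12 libraries with a term per group. The fit used TMM scaling, filterByExpr and the quasi-likelihood test, with Benjamini-Hochberg adjustment over the 15944 genes kept. A call needed an adjusted p under 0.05 beside a fold change above 1.5 in each of 6 pairwise comparisons. Alternatives were DESeq2 1.42.0, limma 3.58.1 on log2(FPKM + 1) and log2(FPKM + 0.1), no filter, no TMM, only the groups compared, glmTreat, a replicate block, a covariate marking the 3 resent libraries, and leaving out each library. The scripts were tested on simulated data. The chi-square per degree of freedom between libraries of a group was 2.98 to 8.5, above sampling noise.

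Positions came from Gencode 44 by identifier without version (99.0% of 58381 found), and promoters from RefSeq GRCh38.p14 (26 of 34 genes found, taking the entry nearest to the annotated start). Promoters were aligned globally in pairs with Python 3.11.15. TASOR was matched by its Gencode 44 name. Named genes were those with on/off expression, then those with the widest range of group mean log2 CPM (prior count of 3), up to 12, with ZNF91 in any case. From the lists of repression partners, of genes inside the interval and of other ZNF genes, those called or widest were named, and the 5 most correlated with ZNF100. ZNF14, ZNF429, ZNF101 and other members are given by group. The members and lists were chosen with earlier results of these data known.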

Additional observations from a re-analysis of the deposited data

Results flagged for a closer look

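The clones of HMC-1.3, made by the same edit, differed in 2 genes of the cluster by a test of the difference itself. These were 12.5% of the 16 genes tested, against 12.6% of all genes, so the share was that of the background. ZNF43 was higher in clone 1 than in clone 2 by 0.80 on the log2 scale (standard error 0.07), in 3 of 3 libraries against 3. ZNF730 was higher in clone 1 by 0.88 (standard error 0.22), without overlap in CPM, whereas the clones overlapped in FPKM. Under edgeR's glmTreat, which tests against a 1.5-fold change itself, 1 gene of the cluster was called between the clones, ZNF43.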

How the results depend on the processing

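The counts of called genes moved by over 1.5 times in few of the alternatives. With limma on log2(FPKM + 1), 4 rather than 7 genes of the cluster were called in clone 2 against HMC-1.2. In clone 2 against HMC-1.1, 0 rather than 3 were called. Of the other ZNF genes of chromosome 19, 31 rather than 60 were called in at least 1 comparison. The 60 were out of 191 tested, a share close to that of all genes (4805 of 15944, 30.1%). With limma on log2(FPKM + 0.1), 4 rather than 2 genes of the cluster were called between the clones. Against a 1.5-fold change itself (glmTreat), 0 were called in clone 2 against HMC-1.1, 1 between the clones, 29 of the other ZNF genes and 3 rather than 5 of the other genes of the interval. The cause was not tested. Against HMC-1.2, leaving out each library in turn gave 10 to 11 genes in HMC-1.1 and clone 1 and 7 to 9 in clone 2. It gave 3 to 4 in clone 2 against HMC-1.1 and 2 to 5 between the clones (5 without replicate 2 of clone 1). Of the other ZNF genes 57 to 66 were called, and of the interval 3 to 5 (3 without replicate 3 of HMC-1.2). With a library left out, the filter on low counts asked for fewer libraries and could keep genes that the main fit left out. These ranges therefore mix the loss of a library with a looser filter. With wider limits, at most 10 counts for off and at least 0.3 CPM for on, chosen after seeing the data, 2 genes were on/off. Of 1761 recomputed log2 fold changes of named genes, 1739 kept their direction and their side of the threshold, 21 were no longer called, 1 was newly called and 0 reversed. The replicate numbers did not pair the samples, with correlations of same-numbered libraries of -0.0433 to 0.0964. With the replicate block, the counts were 10, 7 and 10 in clone 1, clone 2 and HMC-1.1 against HMC-1.2, and 60 of the other ZNF genes. ZNF100 passed the filter on low counts through its HMC-1.2 libraries alone. That filter left out genes that did not reach about 10 counts in at least 3 libraries, the size of a group. Without it, ZNF681 and ZNF486 were also called, and the counts were 11, 9 and 11 in clone 1, clone 2 and HMC-1.1 against HMC-1.2, 4 in clone 2 against HMC-1.1 and 3 between the clones. In FPKM instead of CPM, chosen after seeing the data, 2 rather than 4 genes stood as HMC-1.2 below clone 2 below the others.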
